A study of Mus musculus with 9 samples.

Results

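The platelet-derived growth factor (PDGF) genes examined were the receptors Pdgfra and Pdgfrb and the ligands Pdgfa, Pdgfb, Pdgfc and Pdgfd, 6 of the 19938 genes with a value. They were taken by name as the PDGF ligands and receptors. The measured values used were the means over all arrays: of several probe sets of a gene, 1 was chosen by the highest mean log2 value, but each of the 6 genes had only 1 probe set. The cells were D2.OR, a mouse mammary tumor line, kept as 3D cultures in 1 of 3 matrices: collagen I in fibrillar form, collagen I in non-fibrillar form or, by the sample titles, Matrigel, a basement membrane extract. Total RNA was hybridized to 9 Affymetrix arrays, 3 per matrix, and the values are log2 units after robust multi-array averaging (RMA). The Matrigel group rests on its titles: their growth label gives the non-fibrillar form of collagen I instead, and Matrigel is absent from the series design. All groups share 1 cell line, and no treatment, genotype or time in culture is given that separates them otherwise. Whether replicates were separate cultures is not stated, and the spread behind the p-values is that between arrays, which may be technical. The number of arrays limits the precision.

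PDGFs are secreted as disulfide-linked dimers that pair receptor tyrosine kinases at the cell surface. The alpha receptor binds the A, B and C chains, and the beta receptor binds the B and D chains; the A and B chains are cut to their mature form inside the cell, whereas the C and D chains are secreted with an inhibitory domain that extracellular proteases remove. In the mammary gland the receptors are best known on stromal fibroblasts and on cells around blood vessels, with ligands coming from epithelium, endothelium and platelets, and carcinoma cells that take on mesenchymal features can carry receptors as well.

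The labelled cell type was checked with marker genes. Of 10 epithelial markers 9 lay above the 95th percentile of 1027 olfactory receptor genes, a set taken to show the level of genes not expressed here (5.24 log2 units), and Esrp1 did not. Of those 9, Krt19, Cldn4, Epcam and Cldn3 had means below the median of all genes (6.44 log2 units) in every group. Of 11 fibroblast markers 6 lay at or below the olfactory receptor level, among them Dcn, Lum and Dpt. Of those above it, Vim had group means of 13.29 to 13.36 and Col1a1 of 8.64 to 8.70. Col1a2, Col3a1 and Thy1 had means below the median of all genes. The pericyte markers Rgs5, Abcc9 and Higd1b lay at or below the olfactory receptor level among 12, as did 7 of 10 macrophage, 3 of 10 endothelial and 2 of 7 adipocyte markers. Most pericyte, endothelial and adipocyte markers thus lay above it too, so the check does not settle the cell type. All 6 PDGF genes lay above that level.

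Pdgfra was the PDGF gene that differed most between matrices. It was highest in Matrigel, intermediate in fibrillar collagen and lowest in non-fibrillar collagen, and the 3 groups did not overlap. Fibrillar collagen gave 1.59 times the Pdgfra signal of non-fibrillar collagen, and non-fibrillar collagen gave a signal 2.01-fold lower than Matrigel. The ligands Pdgfa, Pdgfb and Pdgfd had the opposite order, highest in non-fibrillar collagen and lowest in Matrigel, and passed the test between these matrices. In RNA from whole cultures, fewer expressing cells and less RNA per cell cannot be told apart.

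**Figure D1:**
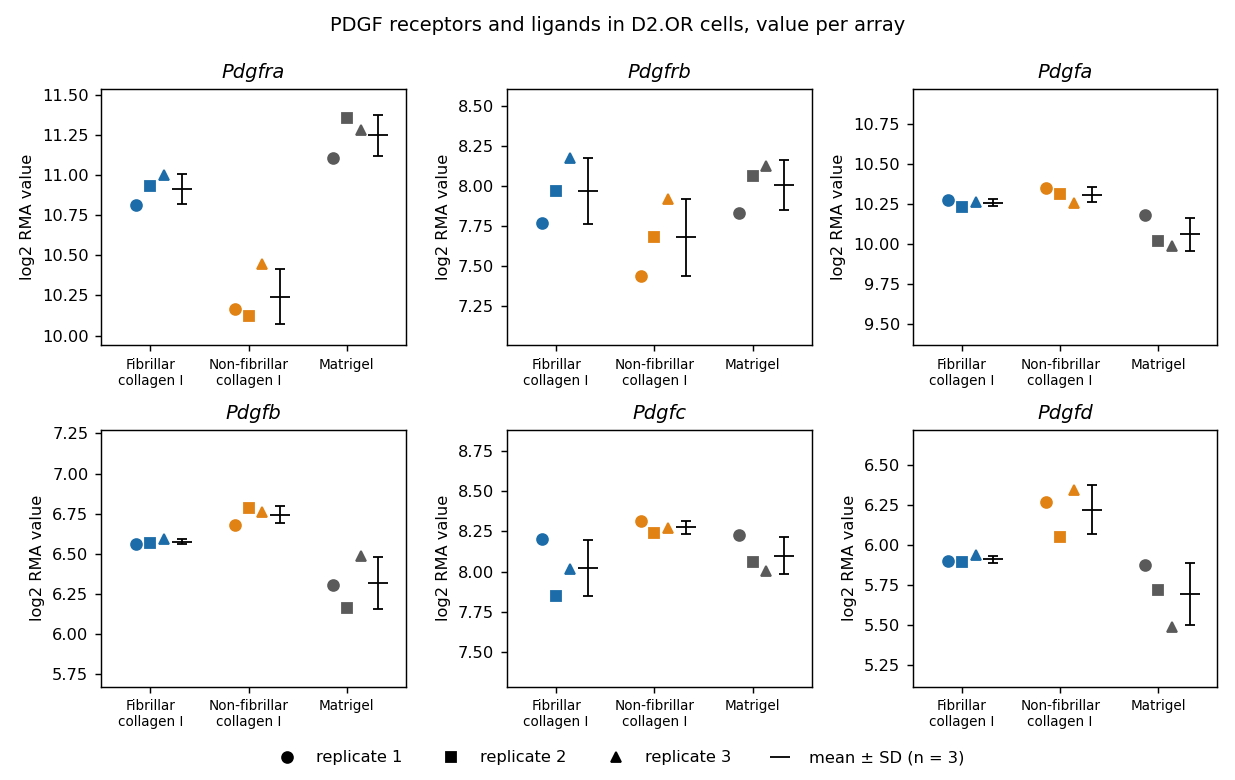
Log2 RMA value of each PDGF gene on each array (y axis; every panel spans the same number of log2 units) in fibrillar collagen I, non-fibrillar collagen I and Matrigel; symbols mark replicate numbers and bars the mean ± SD (n = 3). Pdgfra separates all 3 matrices, with means of 10.91, 10.24 and 11.25, while Pdgfa, Pdgfb and Pdgfd are lowest in Matrigel.

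Pdgfra encodes the alpha receptor. Its log2 values were 10.811, 10.935 and 10.999 in fibrillar collagen, 10.165, 10.122 and 10.443 in non-fibrillar collagen, and 11.110, 11.355 and 11.280 in Matrigel. Every fibrillar array lay above every non-fibrillar array and below every Matrigel array. The difference between fibrillar and non-fibrillar collagen was 0.67 ± 0.095 log2 units (SE, n = 3 arrays per group) and passed (limma, adjusted p = 0.0153, Benjamini-Hochberg over every gene), and its size ranked 59 among all 19938 genes. Pdgfra kept this direction in each same-numbered pair, at 0.65, 0.81 and 0.56. The call was lost without fibrillar replicate 2 or 3, or without non-fibrillar replicate 1 or 2 (adjusted p from 0.0693 to 0.0807), and when all probe sets were tested as features (adjusted p = 0.0508).

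Against Matrigel, Pdgfra was -1.01 ± 0.094 log2 units in non-fibrillar collagen (adjusted p = 1.5e-04, limma), rank 50 by size among all genes, and this call held whichever array was left out. In fibrillar collagen it was -0.33 ± 0.094 against Matrigel (adjusted p = 0.0878), which did not pass although the groups did not overlap. That difference passed without non-fibrillar replicate 3, an array that enters only through the shared estimate of spread (adjusted p = 0.0452). In the order of Pdgfra levels, fibrillar collagen and Matrigel are neighbours whose difference did not pass.

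Pdgfrb, the beta receptor, had the same order of means but a wider spread. Its values were 7.77, 7.97 and 8.17 in fibrillar collagen, 7.44, 7.68 and 7.92 in non-fibrillar collagen, and 7.83, 8.06 and 8.12 in Matrigel, so all 3 groups overlapped. The differences were 0.29 ± 0.145 for fibrillar against non-fibrillar collagen (adjusted p = 0.309, limma), -0.04 ± 0.135 for fibrillar collagen against Matrigel (adjusted p = 0.921) and -0.33 ± 0.135 for non-fibrillar collagen against Matrigel (adjusted p = 0.159). Same-numbered collagen arrays of this gene deviated from their group means together: the differences within pairs were 0.33, 0.28 and 0.26, closer to each other than the arrays within either group. With the replicate number as a block the collagen difference of Pdgfrb was 0.29 ± 0.037 and passed (limma, adjusted p = 0.0283).

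Pdgfa, Pdgfb and Pdgfd were the ligands that passed, each higher in non-fibrillar collagen than in Matrigel. Pdgfa, the main partner of the alpha receptor, had values of 10.27, 10.23 and 10.26 in fibrillar collagen, 10.35, 10.31 and 10.26 in non-fibrillar collagen, and 10.18, 10.02 and 9.98 in Matrigel. The collagen groups overlapped and every collagen array lay above every Matrigel array. The Pdgfa difference was 0.25 ± 0.055 for non-fibrillar collagen against Matrigel (1.19-fold, adjusted p = 0.0154, limma), 0.20 ± 0.055 for fibrillar collagen against Matrigel (adjusted p = 0.0868) and -0.05 ± 0.039 for fibrillar against non-fibrillar collagen (adjusted p = 0.509). The first of these was lost without non-fibrillar replicate 1 or 2 or Matrigel replicate 2 or 3 (adjusted p from 0.0517 to 0.0639). The second passed without Matrigel replicate 1 (adjusted p = 0.0261).

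Pdgfb, the chain that binds both receptors, had values of 6.56, 6.57 and 6.59 in fibrillar collagen, 6.68, 6.78 and 6.76 in non-fibrillar collagen, and 6.30, 6.16 and 6.49 in Matrigel. The 3 groups did not overlap, and the fibrillar arrays lay within a range narrower than that of either other group. Pdgfb was 0.43 ± 0.073 higher in non-fibrillar collagen than in Matrigel (1.34-fold, adjusted p = 0.0040, limma), whichever array was left out. Fibrillar collagen stood at -0.17 ± 0.040 against non-fibrillar collagen (adjusted p = 0.0586) and at 0.26 ± 0.073 against Matrigel (adjusted p = 0.0891). The first passed when genes at or below the olfactory receptor level were left out (adjusted p = 0.0385), and the second without Matrigel replicate 3 (0.34, adjusted p = 0.0222).

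Pdgfd, a ligand of the beta receptor, had values of 5.90, 5.90 and 5.94 in fibrillar collagen, 6.27, 6.05 and 6.34 in non-fibrillar collagen, and 5.87, 5.72 and 5.49 in Matrigel. Its groups did not overlap, but fibrillar replicate 1 and Matrigel replicate 1 were only 0.03 apart. Pdgfd was 0.53 ± 0.098 higher in non-fibrillar collagen than in Matrigel (1.44-fold, adjusted p = 0.0064, limma), whichever array was left out. It stood at -0.31 ± 0.076 in fibrillar against non-fibrillar collagen (adjusted p = 0.0666) and at 0.22 ± 0.098 in fibrillar collagen against Matrigel (adjusted p = 0.283). The collagen difference passed after quantile normalization again (adjusted p = 0.0310), after centring on array medians (0.0436), without genes at or below the olfactory receptor level (0.0378) and without non-fibrillar replicate 2 (0.0394). Pdgfd was the 1 member whose mean lay below the median of all genes, 5.94 against 6.44 log2 units.

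Pdgfc, a ligand of the alpha receptor, passed in no comparison. Its values were 8.201, 7.848 and 8.015 in fibrillar collagen, 8.317, 8.240 and 8.271 in non-fibrillar collagen, and 8.226, 8.062 and 8.004 in Matrigel. The non-fibrillar arrays lay above all others, while fibrillar collagen and Matrigel overlapped. The differences were -0.25 ± 0.087 for fibrillar against non-fibrillar collagen (adjusted p = 0.154, limma), -0.08 ± 0.087 for fibrillar collagen against Matrigel (adjusted p = 0.690) and 0.18 ± 0.087 for non-fibrillar collagen against Matrigel (adjusted p = 0.238).

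**Figure D2:**
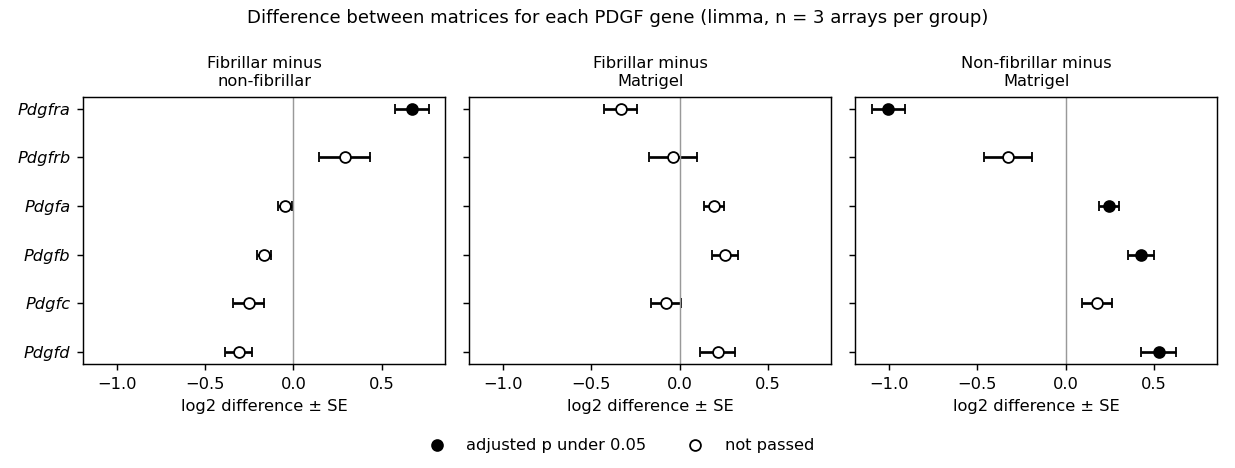
Log2 difference (x axis, ± SE, n = 3 arrays per group) of each PDGF gene in the 3 comparisons, from fits without a replicate block, with filled points for adjusted p under 0.05. Pdgfra is the 1 filled point for fibrillar minus non-fibrillar collagen (0.67), none is filled for fibrillar collagen minus Matrigel, and for non-fibrillar collagen minus Matrigel Pdgfra (-1.01) lies left of 0 with Pdgfa, Pdgfb and Pdgfd right of it.

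Counted over the family, 1 of 6 members passed as higher and 0 as lower in the fibrillar form of collagen against the non-fibrillar form, where 6.4% of all genes passed, 2.71% higher and 3.69% lower. With replicate number as a block Pdgfrb passed there too, also higher (limma, adjusted p = 0.0283). The shares of all genes in this paragraph are from fits without the block, so they are no measure for that further call. In fibrillar collagen against Matrigel 0 of 6 passed, where 3.82% of all genes passed, 1.45% higher and 2.37% lower. An unadjusted p under 0.05 (limma) was found there for 3 of the 6 members, between 0.0055 and 0.0057, and for 3606 of the 19938 genes. In non-fibrillar collagen against Matrigel 3 were higher and 1 was lower, where 13.8% of all genes passed, 6.75% higher and 7.07% lower. Groups that did not overlap were found for 4, 4 and 5 of the 6 members in these comparisons, against 25.2%, 20.4% and 28.4% of all genes. The family medians were -0.11, 0.08 and 0.21 log2 units, against 0.0080, 0.0028 and 6.1e-04 for all genes. In fibrillar collagen against Matrigel the calls over all genes were 289 higher and 473 lower, and 417 and 417 after quantile normalization again. The 3 comparisons share arrays, so their counts are not independent of each other.

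Across the 9 arrays r was positive between the receptors and negative between either receptor and any ligand. Pearson's r between Pdgfra and Pdgfrb was 0.78, and Pdgfra had r of -0.83, -0.84, -0.65 and -0.83 with Pdgfa, Pdgfb, Pdgfc and Pdgfd. Pdgfrb also had negative r with each ligand, between -0.73 and -0.41, and the ligands had r between 0.32 and 0.83 with one another. These values describe 9 arrays in 3 groups, which share the order of the group means, and no test was made of them.

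The sequence before a start listed by RefSeq is shown for Pdgfra and for Pdgfa and Pdgfd, members that passed in opposite directions between non-fibrillar collagen and Matrigel, so that the receptor can be read beside the ligands. RefSeq windows of assembly GRCm38.p6 were matched for 4 of the 6 members, and 250 bases before the start are printed 5′ to 3′, for Pdgfa before the outermost of 2 listed starts. The 3 starts used lie inside the outermost gene bounds of the same assembly, so all 250 bases of the Pdgfra and Pdgfa windows and 123 bases of the Pdgfd window fall within the annotated gene. Capitals mark matches, on either strand, to 5 motifs: the GC box GGGCGG, the CCAAT box CCAAT, the TATA box TATAAA, the AP-1 site TGANTCA and the E-box CACGTG.
Pdgfra, chr5:75152001-75152250, plus strand: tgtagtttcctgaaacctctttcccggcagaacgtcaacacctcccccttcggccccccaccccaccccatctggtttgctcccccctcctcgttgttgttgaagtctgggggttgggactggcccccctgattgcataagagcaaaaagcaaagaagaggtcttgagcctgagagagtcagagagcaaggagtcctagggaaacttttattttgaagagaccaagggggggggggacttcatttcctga
Pdgfa, chr5:138994945-138995194, minus strand: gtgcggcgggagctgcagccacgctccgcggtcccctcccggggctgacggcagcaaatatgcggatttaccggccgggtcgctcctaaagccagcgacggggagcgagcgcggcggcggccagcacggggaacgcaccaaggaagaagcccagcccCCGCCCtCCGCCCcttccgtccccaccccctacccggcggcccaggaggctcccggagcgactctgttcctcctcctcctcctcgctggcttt
Pdgfd, chr9:6168236-6168485, plus strand: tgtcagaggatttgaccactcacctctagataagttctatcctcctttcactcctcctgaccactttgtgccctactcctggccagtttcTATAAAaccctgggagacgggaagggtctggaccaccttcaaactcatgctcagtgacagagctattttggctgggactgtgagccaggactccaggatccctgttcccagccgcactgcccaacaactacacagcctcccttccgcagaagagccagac

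The Pdgfa window held 2 GC boxes, beginning 93 and 86 bases before the start and not overlapping, and 72.4% of its bases were G or C. The Pdgfd window held 1 TATA box, beginning 160 bases before the start, with 53.6% G or C. The Pdgfra window, with 54.4% G or C, held none of the 5 motifs. Neither did the window of the ligand Pdgfc, which is not printed and had 50.8% G or C. Over the 32851 windows of this length in the table, 32.7% held a GC box, 33.8% a CCAAT box, 12.4% a TATA box, 6.75% an AP-1 site and 6.02% an E-box. A match is a stretch of letters and not a bound site.

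The genes most like each member over the 9 arrays were taken by Pearson's r, for members that passed in some comparison, among 1153 genes with an SD of at least 0.2. For Pdgfra these were the dipeptidyl peptidase gene Dpp7 (r = 0.996), the galactosyltransferase gene B4galt5 (r = 0.995) and the progranulin gene Grn (r = 0.992). Dpp7 had values of 9.665, 9.747 and 9.771 in fibrillar collagen, 9.292, 9.328 and 9.477 in non-fibrillar collagen, and 9.882, 10.002 and 9.972 in Matrigel, the same order of groups without overlap. For Pdgfa they were the p38 kinase gene Mapk11 (r = 0.981), the activin antagonist Fst (r = 0.959) and the hyaluronan synthase Has2 (r = 0.949). For Pdgfb they were Plek2 (r = 0.961), the linker histone H1f5 (r = 0.941) and the zinc finger gene Zfp57 (r = 0.926), and for Pdgfd the tight junction claudin Cldn1 (r = 0.963), the kinase gene Rps6ka6 (r = 0.949) and Ripor2 (r = 0.947). These r values are descriptions over 9 arrays that share 3 groups. The genes were chosen by r, so a group order shared with the member is no separate result.

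**Figure D3:**
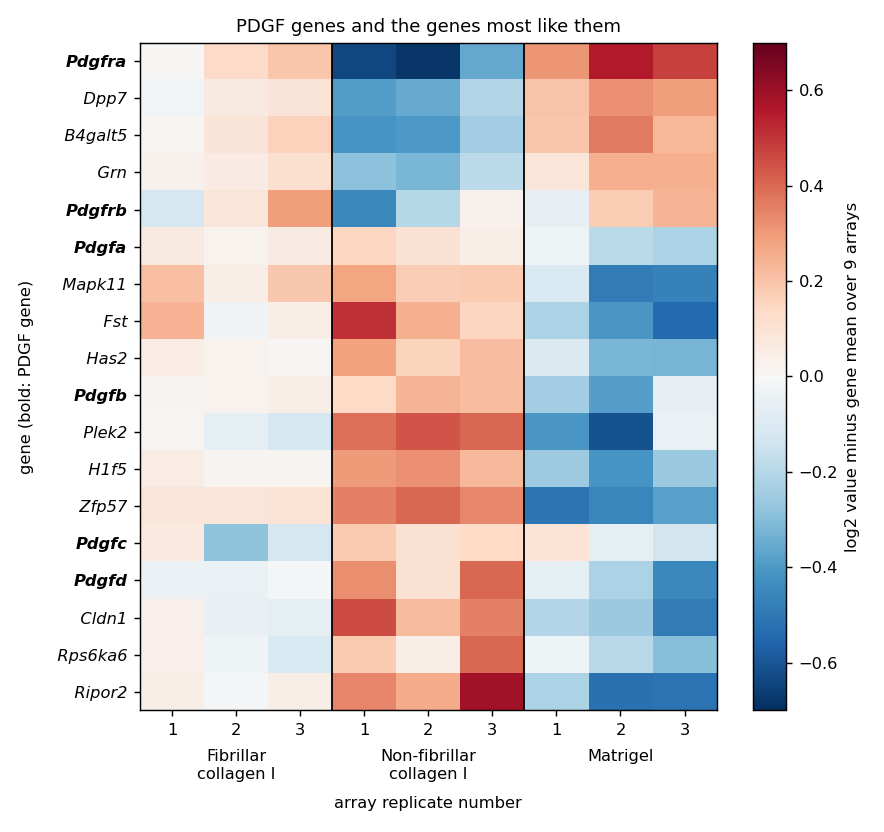
Log2 value minus the gene's mean over 9 arrays (colour) for the 6 PDGF genes (bold) and, under each member that passed, the 3 genes of highest Pearson's r, by array. Pdgfra and the genes under it are lowest in the non-fibrillar arrays, and the genes under Pdgfa, Pdgfb and Pdgfd have their highest means there and their lowest in Matrigel. This likeness follows from choosing the genes by r.

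Among genes that process or hold the ligands, some passed in each direction. Plau, the urokinase that can activate the D chain, had values of 8.94, 8.58 and 8.59 in fibrillar collagen, 9.22, 9.05 and 8.95 in non-fibrillar collagen, and 7.92, 7.79 and 7.84 in Matrigel, with every collagen array above every Matrigel array. It was 2.34-fold higher in non-fibrillar collagen than in Matrigel (1.22 ± 0.101, adjusted p = 7.5e-05, limma). Nrp1, a co-receptor reported for PDGF chains, had the order of Pdgfra: 8.80, 8.77 and 8.72 in fibrillar collagen, 8.52, 8.55 and 8.62 in non-fibrillar collagen, and 9.05, 8.97 and 9.04 in Matrigel. Nrp1 passed in all 3 comparisons, at 0.20 ± 0.042 for fibrillar against non-fibrillar collagen (adjusted p = 0.0422, limma, and 0.0789 with the replicate block, lost whichever array was left out; chosen after its values were seen), -0.25 ± 0.044 for fibrillar collagen against Matrigel (adjusted p = 0.0142, lost without fibrillar or Matrigel replicate 3) and -0.46 ± 0.044 for non-fibrillar collagen against Matrigel (adjusted p = 1.9e-04). Lrp1, an endocytic receptor that the beta receptor can phosphorylate, was 0.43 ± 0.033 higher in fibrillar than in non-fibrillar collagen (1.35-fold, adjusted p = 0.0046). Of the 15 genes of this list, 4 were higher and 0 lower in fibrillar against non-fibrillar collagen, 2 and 1 in fibrillar collagen against Matrigel, and 2 and 5 in non-fibrillar collagen against Matrigel, with medians of 0.02, 0.02 and -0.01. These were 26.7%, 20% and 46.7% of the list, beside 6.4%, 3.82% and 13.8% of all genes. The others named by rule were the perlecan gene Hspg2 (0.51 and -0.38 in the first and last of these) and the protease Bmp1 (0.17 in the first, lost whichever array was left out and with the replicate block, adjusted p = 0.0645) and the matrix protein Thbs1 (0.32 in the second, lost in 7 of 9 refits without 1 array).

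Among proteins that carry the receptor signal, calls were found in both directions. Of 23 measured genes, 3 were higher and 0 lower in fibrillar against non-fibrillar collagen, 1 and 1 in fibrillar collagen against Matrigel, and 2 and 7 in non-fibrillar collagen against Matrigel, with medians of 0.09, -0.05 and -0.08. The calls were 13%, 8.7% and 39.1% of the list, where 6.4%, 3.82% and 13.8% of all genes passed. Each of the 23 genes had group means above the median of all genes, and these shares were not matched for signal level. Stat5a, a transcription factor that receptor kinases can activate, had values of 8.68, 8.61 and 8.76 in fibrillar collagen, 8.28, 8.41 and 8.47 in non-fibrillar collagen, and 8.96, 8.96 and 8.90 in Matrigel, again the group order of Pdgfra without overlap. It was 1.47-fold lower in non-fibrillar collagen than in Matrigel (-0.55 ± 0.058, adjusted p = 3.0e-04, limma), a call kept whichever array was left out. Its other differences, 0.30 ± 0.063 for fibrillar against non-fibrillar collagen and -0.26 ± 0.058 for fibrillar collagen against Matrigel (adjusted p = 0.0459 and 0.0416), were lost in 6 of 6 and in 7 of 9 refits without 1 array. The tyrosine kinase Src was higher in non-fibrillar collagen than in Matrigel (0.37 ± 0.066) and the kinase Jak1 lower (-0.31 ± 0.050), both whichever array was left out. Src was also higher in fibrillar collagen than in Matrigel (0.29 ± 0.066, lost in 7 of 9 refits). The adaptor Gab1 (0.27 ± 0.047, lost in 5 of 6 refits) and the phosphoinositide 3-kinase subunit Pik3r1 (0.22 ± 0.049, lost in 6 of 6 refits and after centring on array medians) were higher in fibrillar than in non-fibrillar collagen.

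Of 16 genes that dampen receptor kinases, 8 were higher and 1 lower in non-fibrillar collagen than in Matrigel, with a median of 0.18. That was 56.2% of the list, against 13.8% of all genes (6.75% higher and 7.07% lower). With the mean of all probe sets of a gene, Ptpn2 (adjusted p = 0.427, limma) and Ptprj, the 1 lower, lost these calls. Whether the 16 genes act on PDGF receptors in these cells was not tested. Errfi1, an inhibitor of receptor kinases, had values of 10.17, 10.23 and 10.22 in fibrillar collagen, 10.48, 10.66 and 10.63 in non-fibrillar collagen, and 9.71, 9.92 and 9.87 in Matrigel. Its groups did not overlap and it was 1.69-fold higher in non-fibrillar collagen than in Matrigel (0.76 ± 0.065, adjusted p = 9.7e-05, limma). The membrane protein Lrig1 (0.32 ± 0.053) and the phosphatase Ptpn12 (0.26 ± 0.051) were also higher there, and all 3 calls held whichever array was left out. In fibrillar against non-fibrillar collagen 1 was higher and 2 were lower, with a median of -0.08: the phosphatase Ptprj (0.21 ± 0.036) was higher, and Errfi1 (-0.39 ± 0.055) and the phosphatase Ptpn2 (-0.38 ± 0.080) were lower, 18.8% of the list against 6.4% of all genes. These 3 calls were lost in 6, 5 and 6 of 6 refits without 1 array, and those of Ptprj and Ptpn2 also with the mean of all probe sets of a gene, where the Ptprj difference was 0.17 (adjusted p = 0.0712, limma) and that of Ptpn2 -0.13 (adjusted p = 0.473). In fibrillar collagen against Matrigel Errfi1 alone passed of the 16, 6.25% against 3.82% of all genes (0.37 ± 0.065, higher, lost without fibrillar replicate 2 or 3).

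Receptor kinases related to the PDGF receptors were counted together with their own ligands, those of the KIT, CSF1, FLT3 and VEGF systems. Their calls were 2 of 15 higher and 0 lower in fibrillar against non-fibrillar collagen, 2 and 1 in fibrillar collagen against Matrigel, and 1 and 2 in non-fibrillar collagen against Matrigel, with medians of 0.03, 0.03 and 0.00. The calls were 13.3%, 20% and 20% of the list, against 6.4%, 3.82% and 13.8% of all genes. Kitl, the KIT ligand, had values of 8.23, 8.30 and 8.37 in fibrillar collagen, 7.67, 7.84 and 8.08 in non-fibrillar collagen, and 8.62, 9.02 and 8.89 in Matrigel. It was 1.97-fold lower in non-fibrillar collagen than in Matrigel (-0.98 ± 0.117, adjusted p = 6.0e-04, limma) and 1.46-fold lower in fibrillar collagen than in Matrigel (-0.54 ± 0.117, adjusted p = 0.0340, lost in 6 of 9 refits without 1 array). The VEGF receptor Flt1 was higher in fibrillar collagen than in Matrigel (0.35 ± 0.042) and than in non-fibrillar collagen (0.24 ± 0.040, lost in 6 of 6 refits). The cytokine Csf1 was higher in fibrillar than in non-fibrillar collagen (0.36 ± 0.053, lost in 5 of 6 refits) and than in Matrigel (0.24 ± 0.052, lost in 6 of 9). In non-fibrillar collagen against Matrigel the VEGF receptor Kdr was lower (-0.47 ± 0.085) and the ligand Vegfa higher (0.27 ± 0.070, lost in 7 of 9 refits).

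Of 15 genes known to be induced by PDGF in fibroblasts, 5 were higher and 0 lower in non-fibrillar collagen than in Matrigel, with a median of 0.12. The calls were 33.3% of the list, against 13.8% of all genes (6.75% higher and 7.07% lower). Has2, the hyaluronan synthase, had values of 11.24, 11.21 and 11.20 in fibrillar collagen, 11.47, 11.35 and 11.41 in non-fibrillar collagen, and 11.09, 10.87 and 10.87 in Matrigel, with no overlap. It was 1.38-fold higher in non-fibrillar collagen than in Matrigel (0.47 ± 0.064, adjusted p = 0.0012, limma). The immediate early genes Ier2 (0.49 ± 0.052) and Ier3 (0.48 ± 0.054) were higher by like amounts, and all 3 calls held whichever array was left out. Among the 10 genes of the list that did not pass in that comparison were Egr1 (0.12), Junb (0.09), Myc (0.06), Fos (0.02) and Fosl1 (0.01). In fibrillar collagen against Matrigel 3 were higher and 0 lower (median 0.04), 20% of the list against 3.82% of all genes: the urokinase receptor Plaur (0.53 ± 0.069), the AP-1 subunit Fosl1 (0.26 ± 0.044) and Has2 (0.28 ± 0.064, lost in 8 of 9 refits). In fibrillar against non-fibrillar collagen 1 was higher and 4 were lower (median -0.15), 33.3% of the list against 6.4% of all genes, among them Fosl1, higher (0.25 ± 0.037), and Csrp1 (-0.27 ± 0.037) and Ier2 (-0.35 ± 0.053), lower, which lost the call in 5, 4 and 4 of 6 refits. Ccl2, named besides the rule for its size, was also lower there (-0.80 ± 0.160, adjusted p = 0.0389, limma). Its difference in fibrillar collagen against Matrigel was -0.56 and did not pass (adjusted p = 0.0538, limma). Refits without 1 array were not read for Ccl2. Many other signals induce the genes of this list.

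**Figure D4:**
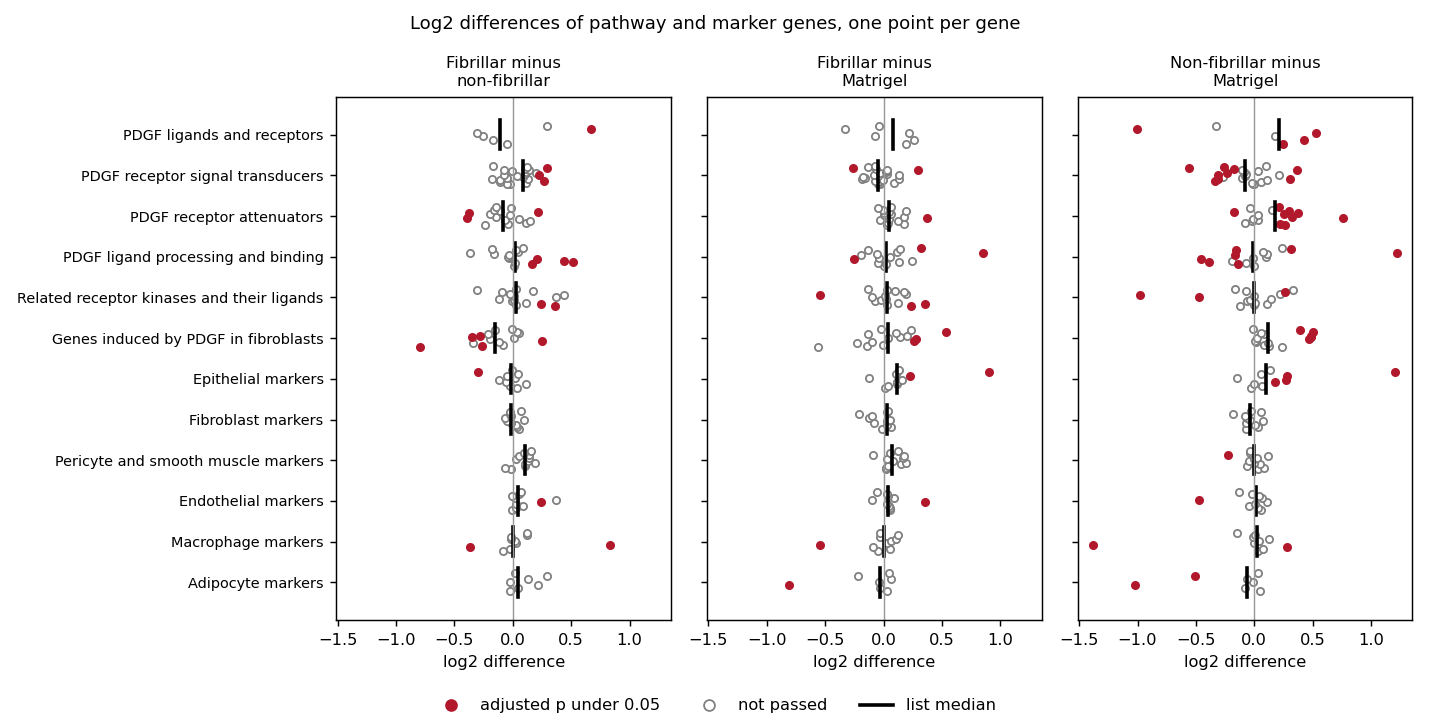
Log2 difference (x axis) of every measured gene of the PDGF family, of its pathway lists and of the cell type marker lists, in the 3 comparisons; red points passed at adjusted p under 0.05 and black bars are list medians. In non-fibrillar collagen minus Matrigel the attenuators of receptor kinases have a median of 0.18 and the signal transducers one of -0.08, and the fibroblast markers hold no red point in any panel.

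Markers of the cell types that usually carry PDGF receptors were set beside these results. Of all genes, 6.4% passed between the collagens, 3.82% in fibrillar and 13.8% in non-fibrillar collagen against Matrigel. In lists of 11 or 12 genes, 0 or 1 calls lie near these shares. Of 11 fibroblast markers 0 passed in any comparison. An unadjusted p under 0.05 (limma) was found for 0, 1 and 1 of them, beside 4316, 3606 and 5088 of the 19938 genes. The mean of the fibroblast list was 5.86 to 5.88 log2 units in fibrillar collagen, 5.82 to 5.91 in non-fibrillar collagen and 5.87 to 5.92 in Matrigel. Of 12 pericyte and smooth muscle markers only Notch3 passed, -0.22 ± 0.046 in non-fibrillar collagen against Matrigel (adjusted p = 0.00998), and the list mean was 5.56 to 5.67, 5.51 to 5.56 and 5.54 to 5.56 in the 3 groups in that order. The epithelial list mean was 8.10 to 8.12 in fibrillar collagen and 8.13 to 8.15 in non-fibrillar collagen, above 7.93 to 7.96 in Matrigel. Of 10 epithelial markers 0 were higher and 1 lower between fibrillar and non-fibrillar collagen, 2 and 0 in fibrillar collagen against Matrigel, and 4 and 0 in non-fibrillar collagen against Matrigel. These were 10%, 20% and 40% of the list. In both collagens against Matrigel Krt7 (0.90 ± 0.039 in fibrillar, 1.20 ± 0.039 in non-fibrillar collagen) and Krt18 (0.23 ± 0.040 and 0.28 ± 0.040) were higher, and so was Epcam in non-fibrillar collagen (0.28 ± 0.050); Krt7 was lower in fibrillar compared with non-fibrillar collagen (-0.30 ± 0.034). Krt18 lost its call in fibrillar collagen without Matrigel replicate 2, and Krt7 its call between the collagens without fibrillar replicate 3. Among macrophage markers, the lysosomal glycoprotein gene Cd68 had the group order of Pdgfra, at 0.83 ± 0.081 for fibrillar against non-fibrillar collagen and -0.55 ± 0.081 and -1.38 ± 0.081 for fibrillar and non-fibrillar collagen against Matrigel, while 7 of the 10 markers lay at or below the olfactory receptor level, Csf1r and Adgre1 among them. Cd14 was lower in fibrillar compared with non-fibrillar collagen (-0.37 ± 0.079, lost in 6 of 6 refits) and higher in non-fibrillar collagen than in Matrigel (0.28 ± 0.073, lost in 4 of 9). The list mean was 5.34 to 5.41 in fibrillar collagen, 5.29 to 5.33 in non-fibrillar collagen and 5.40 to 5.43 in Matrigel. Of 7 adipocyte markers 1 and 2 were lower in fibrillar and in non-fibrillar collagen than in Matrigel, the lipid carrier Fabp4 (-0.81 ± 0.083 and -1.02 ± 0.083) in both and the regulator Pparg (-0.51 ± 0.069) in the second, while Adipoq and Lep lay at or below the olfactory receptor level. The adipocyte calls were 14.3% and 28.6% of the list. Of 10 endothelial markers only Flt1 and Kdr passed, with the differences given above, and the list mean was 5.88 to 5.91, 5.78 to 5.83 and 5.83 to 5.85 in the same order of groups. In each comparison 10% of the endothelial list passed. The part of these markers in the PDGF differences was not tested.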

How the data were processed

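The authors deposited log2 expression values per probe set. Per the submitters' processing notes, RMA and Affymetrix Power Tools made them; for their versions, and for which arrays were normalized together, the answer is not given in the sources used here. RMA makes the arrays' distributions alike, so a shift common to most genes would not be seen. Column medians ran from 5.98 to 6.05, and Pearson's r across probe sets was 0.992 to 0.996 between any pair of arrays, so none stood apart. Of 35512 probe sets, 21789 had 1 gene symbol in the platform annotation, 1621 several and 12102 none listed; 21698 matched a current gene table. The probe set of highest mean stood for a gene, which left 19938 genes.

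The fits used lmFit and eBayes of limma 3.58.1 (R 4.3.3). P-values are two-sided and were adjusted by the Benjamini-Hochberg method across the 19938 genes, and 0.05 was the threshold. One fit held the 6 collagen arrays and another all 9 arrays, for the comparisons with Matrigel. Folds were taken from log2 differences as powers of 2, and errors are limma's standard errors. No filter was set on dim genes and values were not rescaled. The fits were tested on simulated data.

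The members and gene lists were chosen with earlier results of these data known, so their p-values are no independent support. All members were named, as were up to 3 genes per list and comparison that passed, by smallest p, and the 3 genes of highest Pearson's r with each member that passed, among genes with an SD of at least 0.2 and without predicted gene models. Genes named besides are said to be so.

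Deviations from the group means correlated between same-numbered arrays across genes at 0.221, 0.143 and 0.242 for the collagen groups, all above 0.1, so the replicate number was taken to pair these arrays; the pairing comes from these correlations, since no label states it. For fibrillar and non-fibrillar collagen against Matrigel the lowest of the 3 values was 0.097 and 0.045, and the numbers were not taken to pair those arrays. The main collagen fit and its counts leave the pairing out, and the replicate block was run beside them. Other settings tried were a fit of other arrays, a replicate block, a further quantile normalization, centred arrays, 2 filters against dim genes, the mean of a gene's probe sets or every probe set by itself, eBayes with trend and robust settings, weights per array, 0.01 as threshold, and 1 array left out at a time.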

Additional observations from a re-analysis of the deposited data

How the results depend on the processing

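Directions and calls of Pdgfra, Pdgfb and Pdgfd in non-fibrillar collagen against Matrigel were the same under every alternative that gave a value; Pdgfd has none under the filter at the median of all genes. In that comparison Pdgfa lost its call at a threshold of 0.01, and Pdgfrb, with replicate number as a block, made 2 members lower (adjusted p = 0.0034, limma). Between the collagens 0 members were higher when every probe set was tested and at 0.01, and 2 with the replicate block; members lower were 1 after quantile normalization again, after centring and above the median of all genes, and 2 above the olfactory receptor level. In fibrillar collagen against Matrigel 1 member was lower with the replicate block (Pdgfra, adjusted p = 0.0382), and 2 were higher and 1 lower above the median of all genes. The block changed no other call of a member except that of Pdgfrb between the collagens (adjusted p = 0.0283), and Csf1 lost its call in fibrillar collagen against Matrigel with it (adjusted p = 0.0534). Among members in all comparisons and other genes named from the lists where they passed, signs turned only in fibrillar collagen against Matrigel, for differences that did not pass: Pdgfrb was at 0.0081 after quantile normalization again and ran from -0.14 to 0.07 with 1 array left out, above 0 without fibrillar replicate 1 (0.065) or Matrigel replicate 3 (0.023). Pdgfc ran from -0.17 to 0.01 and was above 0 without fibrillar replicate 2 (0.011).

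Leaving out 1 array gave 0 to 1 members higher and 0 to 1 lower between the collagens and in fibrillar collagen against Matrigel, and 2 to 3 higher and 1 lower in non-fibrillar collagen against Matrigel. All genes higher and lower then numbered 76 to 216 and 74 to 353, 134 to 261 and 219 to 457, and 823 to 1293 and 991 to 1344 in these comparisons. The counts over all genes, 541 higher and 736 lower between the collagens, were 864 and 1347 above the median of all genes, 219 and 257 with every probe set, and 84 and 84 at 0.01, with 1105 lower above the olfactory receptor level. In fibrillar collagen against Matrigel 289 and 473 became 149 and 311 with only those groups in the fit, 453 and 811 above the median, 146 and 286 with every probe set, and 77 and 162 at 0.01. In non-fibrillar collagen against Matrigel 1345 and 1410 became 615 and 804 at 0.01. Filters changed how many genes shared the adjustment; the cause of the other changes was not tested. No detection calls were used, so the olfactory receptor level stands in for signal over background.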
